A study of Mus musculus with 6 samples.

Results

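The cells described here are neutrophils from mouse melanomas: 1273 of the 20407 single cells that passed the filters (6.2% of them). They were chosen by their RNA. A cell counted as a neutrophil when S100a8 and S100a9 made up at least 2% of its gene UMIs (unique molecular identifiers, each standing for 1 captured RNA molecule) and when Csf3r, Cxcr2, G0s2 and Retnlg together had at least 2 UMIs. It also had to have fewer than 5 UMIs of the complement genes C1qa, C1qb and C1qc, which mark macrophages, fewer than 2 of Ly6c2, which marks monocytes, and 0 of the T cell genes Cd3e and Cd3d. A barcode entered this choice with at least 500 gene UMIs, at most 10% mitochondrial UMIs, and a top hashtag with at least 10 counts and at least 70% of all hashtag counts.

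The series is a CITE-seq study, in which antibodies carrying DNA tags are counted in the same single cells as messenger RNA. YUMM1.7 cells, a mouse melanoma line, were grown under the skin of female mice of 8 weeks (C57BL/6J in the protocol, C57BL/6JRccHsd in the strain label), and cells positive for CD45 were sorted from the tumours at day 28. All mice carried a floxed Nr3c1 gene (GRf/f), which encodes the glucocorticoid receptor. GRf/f-LysMCre mice carried in addition a Cre recombinase under the Lyz2 promoter, which is active in neutrophils, monocytes and macrophages. Either antibody, anti-PD-1 or an isotype control, was given at 12.5 mg/kg from about day 7, 2 times per week for 3 weeks. The 4 conditions, had 4 mice each, and a mouse is named below by genotype (floxed or LysM-Cre), antibody and a number. Each mouse was marked with a hashtag antibody, and 2 pools of 8 mice (E5 and E6) held 2 mice of every condition.

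Neutrophils are short-lived granulocytes that bone marrow releases in large numbers. They leave the blood along gradients of chemokines that their receptor CXCR2 reads, and they carry ready-made granule proteins and alarmins. Within tumours they can live longer and acquire other states, some with genes of inflammation, low oxygen and immune suppression. They hold little RNA, so they are easily lost from single-cell data.

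That low RNA content was seen here. The median neutrophil had 2986 gene UMIs from 1039 genes, against 10176 UMIs in Ly6c2-high C1q-low cells, the comparison used below (2650 cells with at least 2 Ly6c2 UMIs and fewer than 5 C1q UMIs, largely monocyte-type by rule). Its antibody counts were higher, with a median of 3304 against 1565. Neutrophils per mouse ranged from 9 to 399, and 3 mice (floxed isotype 3, LysM-Cre anti-PD-1 4 and LysM-Cre isotype 2) gave 849 of them (66.7%). Gene UMIs of neutrophils per mouse ranged from 23257 to 1306692. Of the kept barcodes, 293 occurred in both pools, 1 of them a neutrophil, and 0 barcodes were called neutrophil in both. In the submitters' antibody table, 2 hashtags of floxed isotype mice are printed with the same tag, although the matrices count them separately:
Hashtag 8: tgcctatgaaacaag
Hashtag 9: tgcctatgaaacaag
Whether this touched the numbers of floxed isotype mice was not tested.

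The label was checked with Ly-6G, a surface protein of neutrophils that the RNA rule did not use. At least 5 Ly-6G antibody counts were found on 99.2% of the neutrophils, with a median of 43 counts. The same count was reached by 9.06% of Ly6c2-high C1q-low cells, 7.45% of cells with at least 5 C1q UMIs (C1q-high cells) and 0.548% of cells with CD3 RNA (CD3 cells). The protein thus went with the label. It also showed where the rule ends. Cells that missed the rule only through too many C1q UMIs (192 cells), too many Ly6c2 UMIs (213 cells) or a CD3 UMI (65 cells) had median Ly-6G counts of 45.5, 41 and 51, as high as on the chosen cells. The 213 cells are part of the 2650 Ly6c2-high C1q-low cells used for comparison below, and their part in the comparison group's levels was not tested. The 553 cells that missed only the S100a8 and S100a9 criterion had a median of 5, and the 32 that missed only the criterion on Csf3r, Cxcr2, G0s2 and Retnlg one of 26.5. At that criterion the medians were lower on both sides, 29 counts with 2 UMIs (23 cells, inside) and 27 with 1 (18 cells, outside). Just inside and outside that limit, however, the 84 cells with 2 to 3% and the 111 cells with 1 to 2% had medians of 41.5 and 41 counts. With 4 C1q UMIs (143 cells, inside) and 5 (80 cells, outside) the medians were 44 and 49.

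The genes the rule used are described without a test. S100a8 and S100a9, which together form the alarmin calprotectin, made up 13% of neutrophil UMIs on average over mice. S100a9 stood at 75363 ± 15155 CPM (a gene's share of all gene UMIs of a mouse's neutrophils, on the usual CPM scale; mean ± SD over the 13 mice with at least 20 neutrophils), with a lowest mouse at 50721, a median of 76270 and a highest at 107130. S100a8 stood at 54354 ± 11820 CPM, between 31929 and 80213. Both were lowest in floxed anti-PD-1 mouse 3, whose 22 neutrophils stood apart in several genes described below, and highest in LysM-Cre anti-PD-1 mouse 4.

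The other markers were less abundant than the alarmins. Csf3r, the receptor of the growth factor G-CSF, was at 1753 ± 395 CPM, and Cxcr2 at 1259 ± 237 CPM, with 746 in the lowest mouse and 1622 in the highest. Hdc, which makes histamine and was not used by the rule, was at 1960 ± 323 CPM in neutrophils against 51.3 CPM in Ly6c2-high C1q-low cells, and it was higher in 13 of 13 mice. G0s2, an inhibitor of fat breakdown, was at 3699 ± 918 CPM. Retnlg, which encodes a secreted resistin-like protein, varied most among the markers: its median was 5527 CPM, its lowest 1079 (floxed anti-PD-1 mouse 3) and its highest 13134 (LysM-Cre anti-PD-1 mouse 4).

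**Figure D1:**
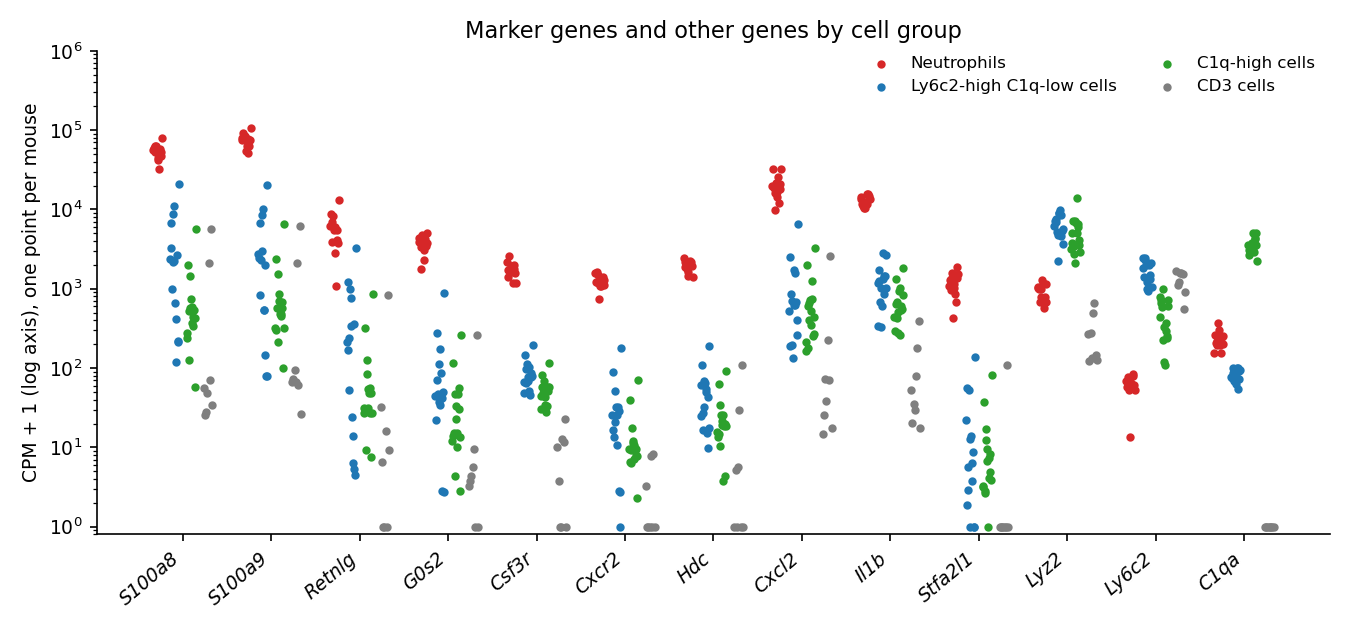
Level of 13 genes in 4 cell groups, in CPM + 1 on a log axis, with 1 point per mouse with at least 20 cells of the group. Neutrophils lay above the other groups for S100a8, S100a9, the receptors, Hdc and Cxcl2, and below the Ly6c2-high and C1q-high cells for Lyz2; S100a8 in Ly6c2-high C1q-low cells spread over more than an order of magnitude between mice.

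Inflammatory messengers were among the most abundant RNAs. Cxcl2, a chemokine that itself attracts neutrophils through CXCR2, was at 19864 ± 6979 CPM, from 9708 to 32665, against 1169 CPM in Ly6c2-high C1q-low cells. Il1b, the precursor of interleukin-1 beta, was at 12875 ± 1825 CPM, against 1247 CPM. The prostaglandin enzyme Ptgs2 was at 1632 ± 626 CPM and Acod1, which makes itaconate, at 1689 ± 442 CPM. These differences are a description, because the cell groups were drawn from the same RNA counts. Of the 25 genes that differed most from Ly6c2-high C1q-low cells among genes of at least 50 CPM, the metalloreductase Steap4 (267 against 3.93 CPM), the protease inhibitor Stfa2l1 (1160 against 20.9 CPM), the niacin receptor Hcar2 (962 against 20.1 CPM), Hdc and Cxcr2 led. Stfa2l1 has close copies in the genome, and how reads were divided among them is not given in the sources used here.

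Several granule genes of immature cells were nearly absent. Mpo, Ctsg and Bpi, made in early precursors, had 0 UMIs in these mice, and Ltf and Camp, made in later precursors, were at 4.5 ± 5.06 and 4.53 ± 5.55 CPM. This did not hold for the whole granule list. Of its 16 genes, 10 reached a mean of 10 CPM, some of the precursor genes Elane, Prtn3 and Ngp among them. Mmp9, a gelatinase of the last granules, was at 691 ± 198 CPM. Lyz2, the lysozyme gene at which the Cre sits, was lower in neutrophils (914 ± 228 CPM) than in Ly6c2-high C1q-low cells (6374 CPM) in 13 of 13 mice. Arg1, often used as a marker of suppressive myeloid cells, was at 10.9 ± 9.26 CPM, whereas its relative Arg2 was at 304 ± 56.1 CPM. The survival factor Mcl1 and the kinase gene Pim1 were at 4015 ± 409 and 3339 ± 429 CPM.

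Markers of other cells were low but not all at 0. The 12 macrophage markers summed to between 1714 and 6163 CPM, mostly Apoe, against 24313 CPM in C1q-high cells, and 83.3% of the neutrophils had at least 1 C1q UMI. The comparison groups were cut on C1q and give no background for that share. The 10 monocyte markers summed to between 425 and 1199 CPM, against 10913 in Ly6c2-high C1q-low cells. Eosinophil genes Epx, Prg2 and Ear1 had 0 UMIs, as did Mlana, Dct, Tyr, Tyrp1 and Sox10 of melanoma cells. Siglecf RNA was at 21.5 ± 29 CPM, with 111 CPM in LysM-Cre isotype mouse 4. In the other direction, CD3 cells carried S100a8 at 1006 CPM on average. How much free RNA lies in these levels was not tested.

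Surface proteins could be tested, because the rule used none. In the matrices each antibody is known by a 15-base tag. The tags of the 4 proteins on which the results below turn are shown, because these letters are what was counted:
Ly6G: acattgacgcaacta
CD14: aaccaacagtcacgt
SiglecF: tcaatctccgtcgct
CD274: tcgattccaccaact

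Against Ly6c2-high C1q-low cells of the same mice, neutrophils carried more Ly-6G, CD11b, Siglec-F, CD55 and CD24 and less ICAM1, CD274, I-A/I-E (MHC class II), CD64, CD40 and CD86. CD11b, the integrin of myeloid cells, alone took 60% of all neutrophil antibody counts, with 562640 to 629250 antibody CPM (the same scale over antibody counts) over the 13 mice. Because of that, the scaling matters. With TMM, which scales by the bulk of the antibodies, 52 of 86 antibodies passed adjusted p 0.05 (60.5% of those tested by edgeR's quasi-likelihood test with mouse as block), 21 higher (24.4%) and 31 lower (36%), at a median log2 change of -0.07. With the antibody totals alone, the median was -1.30 and 81 passed, 5 higher and 76 lower. The 5 higher and 31 lower antibodies were called in the same direction with both scalings. A further 11 that were higher with TMM were lower with totals alone, among them CD43, CD39 and CXCR4, so no direction is given for these. Another 5 were higher with TMM and not called with totals alone: CD63, CD9, CD44, PIRAB and Hamster. Hamster, whose name gives no target protein, was higher by 1.11 ± 0.23 (edgeR, adjusted p = 0.00031). What this means for the size of the other TMM changes was not tested.

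Ly-6G was at 14721 ± 1436 antibody CPM in neutrophils (lowest 12611, highest 17376) and at 1989 ± 1431 in Ly6c2-high C1q-low cells, and it was higher in 13 of 13 mice. The fitted log2 change was 4.38 ± 0.38 (SE; adjusted p = 7e-09), and 3.08 with totals alone. CD55, which protects cells from complement, was higher by 3.51 ± 0.36 (adjusted p = 7.7e-08). Siglec-F, better known from eosinophils and reported on neutrophils of some tumours, was at 2678 ± 1019 against 802 ± 530 antibody CPM and higher in 12 of 13 mice, by 3.11 ± 0.27 (adjusted p = 8e-09). CD24 was higher by 2.78 ± 0.20 and CD11b by 2.30 ± 0.15. Log2 changes of proteins are TMM-scaled unless stated, so they differ from the ratios of the antibody CPM, which are shares of totals.

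Among the proteins that were lower, ICAM1, the ligand of leukocyte integrins, stood at 1514 ± 432 antibody CPM in neutrophils and 16190 ± 2789 in Ly6c2-high C1q-low cells. Its log2 change was -2.18 ± 0.16 (adjusted p = 8.2e-10). CD274 (PD-L1), the ligand of PD-1, was at 1785 ± 1251 against 11315 ± 4248 antibody CPM, lower in 13 of 13 mice by a log2 change of -1.46 ± 0.16 (adjusted p = 1.4e-07). The highest CD274 was in floxed anti-PD-1 mouse 3, at 5577. CD14, the co-receptor for bacterial lipopolysaccharide, did not pass with TMM (-0.08 ± 0.16, adjusted p = 0.713) and was lower with totals alone (-1.35).

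**Figure D2:**
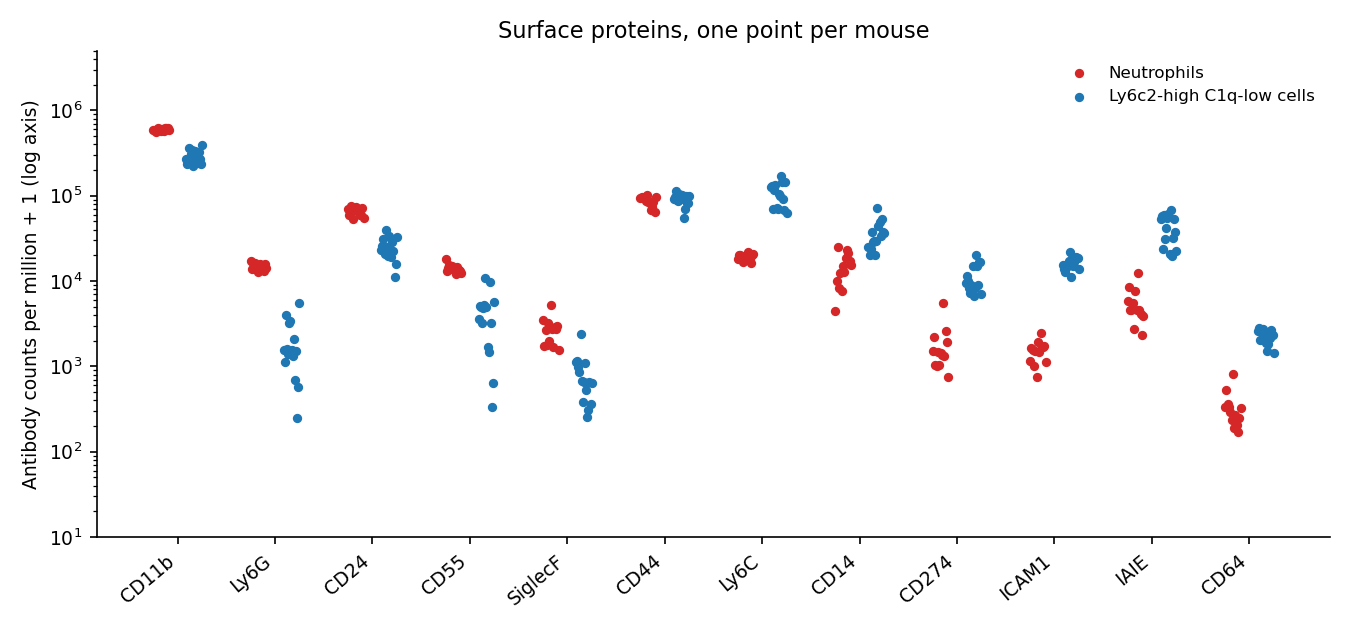
Surface proteins of neutrophils (red) and Ly6c2-high C1q-low cells (blue) as antibody CPM + 1 on a log axis, with 1 point per mouse. Ly-6G, CD11b, CD24 and CD55 were higher on neutrophils and ICAM1, CD274, I-A/I-E (IAIE) and CD64 lower, with CD14 varying widely between mice.

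The share of neutrophils among kept cells was the first measure compared between conditions. Floxed isotype mice had 2.9, 0.728, 10.4 and 3.52% and LysM-Cre isotype mice 4.79, 7.66, 3.97 and 1.57%. With anti-PD-1, floxed mice had 7.95, 11.2, 3.16 and 1.75% and LysM-Cre mice 6.02, 4.15, 5.2 and 23.6%. All 4 conditions overlapped, and LysM-Cre anti-PD-1 mouse 4 lay far above every other mouse. The means were 4.39 ± 4.19, 4.5 ± 2.51, 6.01 ± 4.35 and 9.73 ± 9.25% (SD, n = 4) in that order.

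The share with anti-PD-1 exceeded that with isotype by 3.43 percentage points (exact permutation test within genotype and pool, two-sided, p = 0.306, adjusted 0.789 over 6 comparisons). Within pool E5 the means were 7.32% with anti-PD-1 and 4.02% with isotype, and within pool E6 8.42 and 4.87%. The E6 medians were closer, at 4.18 and 3.74%, and the SD with anti-PD-1 there was 10.2 points. When mice were left out one at a time, the treatment difference lay between 1.19 and 4.30 points. LysM-Cre mice exceeded floxed mice by 1.91 points (exact p = 0.648), but by -0.44 points, in the other direction, without LysM-Cre anti-PD-1 mouse 4. Neither difference was larger than the spread between mice. A share also depends on how many other CD45-positive cells a tumour gave, which cannot be told apart here.

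**Figure D3:**
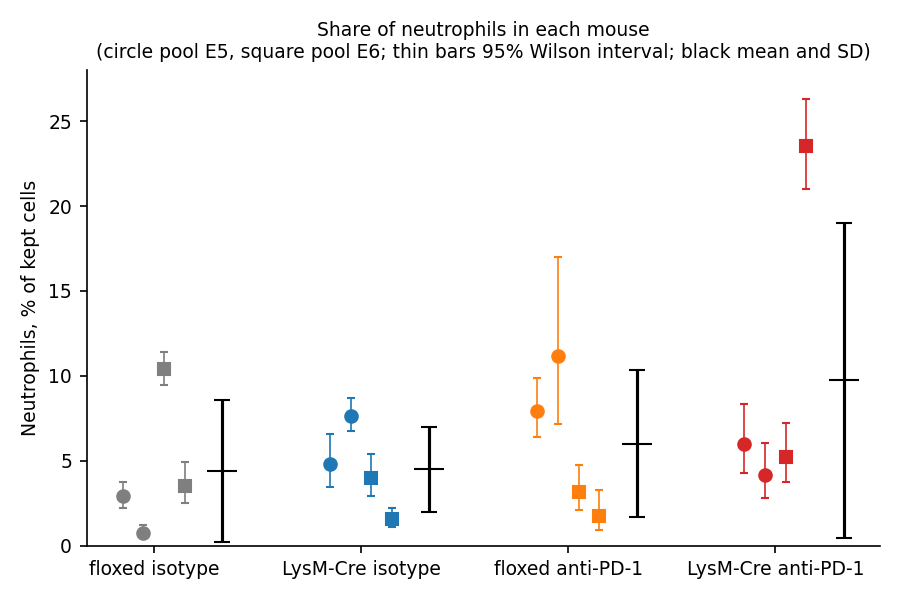
Neutrophils as a percent of kept cells in each of 16 mice, by condition; circles are pool E5, squares pool E6, thin bars 95% Wilson intervals (counting error only) and black marks the mean and SD of 4 mice. LysM-Cre anti-PD-1 mouse 4 stands at 23.6%, all others at or below 11.2%.

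For RNA, the neutrophil UMIs of each mouse were summed and tested over the 13 mice with at least 20 neutrophils (isotype: 3 floxed and 4 LysM-Cre; anti-PD-1: 2 floxed and 4 LysM-Cre). For LysM-Cre against floxed, 0 of 1603 genes passed adjusted p 0.05 (background 0%) in edgeR and 0 in DESeq2, with 58 genes at an unadjusted p under 0.05. For anti-PD-1 against isotype, 0 of 1603 genes passed (background 0%) in edgeR and 1 in DESeq2, with 65 at an unadjusted p under 0.05. In data simulated for the anti-PD-1 contrast alone (1624 genes), the test found 84.7% of tested genes with a log2 change of size 1. It found 100% of those of size 2, with 2 false calls. In the measured counts Ddx60, an interferon-induced gene described below, was fitted beyond size 1 and did not pass (edgeR, adjusted p = 0.201). How far the shares found in simulation hold for the measured counts was not tested.

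The gene at the centre of the design, Nr3c1, is counted from its 3′ end, and the labels do not give which exon is floxed, so its level does not check the deletion. It was at 154, 99.5 and 226 CPM in the tested floxed isotype mice and at 97.6, 62, 47.8 and 86.6 CPM in LysM-Cre isotype mice. With anti-PD-1 it was at 107 and 69.1 CPM in floxed mice and 66.4, 66.4, 80.8 and 62.4 CPM in those with Cre. Its log2 change was -0.79 ± 0.27 (adjusted p = 0.9996 in edgeR), so it did not pass. Tsc22d3 (GILZ), a target that the receptor induces, had -0.58 ± 0.20 (adjusted p = 0.9996), and Fkbp5, another target, was at 18.4 ± 9.32 CPM. Of the 25 genes of the glucocorticoid response list, 15 were tested. None of these 15 passed for genotype (edgeR, 1 at an unadjusted p under 0.05), and their median log2 change was 0.06 beside 0.01 over all genes.

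The MHC list had 11 genes tested for genotype, all fitted lower in LysM-Cre mice at a median of -0.45, and 0 passed (4 at an unadjusted p under 0.05). H2-Aa, a chain of MHC class II, was at 2378 CPM in floxed anti-PD-1 mouse 3 and between 124 and 322 CPM in the other 12 tested mice. Its log2 change for genotype was -1.63 ± 0.46 and lay between -2.03 and -0.74 when mice were left out one at a time. The same mouse had Cd74 at 5089 CPM, against at most 955 in the others, and a median of 14 CD274 antibody counts per neutrophil, against 2 to 5 in the other 15 mice.

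In the other lists, too, 0 genes passed, but several medians lay away from that of all genes. For genotype, 15 of 19 tested genes of hypoxia and glycolysis were fitted higher (median 0.33), and the inflammatory and interferon lists had medians of -0.19 each. For anti-PD-1 against isotype, 15 of 17 tested inflammatory genes and 16 of 18 genes of the tumour-associated list were fitted higher, at medians of 0.31 and 0.30 beside 0.02 over all genes. The survival list had a median of 0.27, and the interferon list -0.25, with 5 of 23 tested genes at an unadjusted p under 0.05. The gene with the smallest adjusted p was Ddx60, an interferon-induced helicase, at -1.57 ± 0.31 (adjusted p = 0.201). Leaving out floxed anti-PD-1 mouse 3 brought 6 genes past the threshold, all lower, with Ddx60 at adjusted p = 0.0307. Surface proteins gave 0 of 82 past adjusted p 0.05 (background 0%) in either contrast in edgeR, with 5 at an unadjusted p under 0.05 for genotype and 7 for treatment.

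Within LysM-Cre mice, 1 of 1819 genes (0.055%) passed for anti-PD-1 against isotype. Ifit1, an interferon-induced protein that binds foreign RNA, was at 1302, 326, 249 and 136 CPM in LysM-Cre isotype mice (120, 242, 26 and 11 UMIs) and at 11.1, 33.2, 40.4 and 23.5 CPM after anti-PD-1 (1, 2, 4 and 23 UMIs). In both groups, mice 1 and 2 were of pool E5 and mice 3 and 4 of pool E6. The log2 change was -3.87 ± 0.67 (edgeR, adjusted p = 0.042). It did not pass when mice with at least 10 neutrophils were fitted (adjusted p = 0.149). When mice were left out one at a time, its log2 change stayed between -4.32 and -3.21, its adjusted p lay between 0.0052 and 0.302, and 8 of 13 omissions ended the call.

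Rsad2 (viperin), an antiviral enzyme, was at 1367, 577, 1300 and 421 CPM in LysM-Cre isotype mice and at 33.2, 216, 273 and 57.3 CPM with anti-PD-1. Its log2 change of -2.94 ± 0.60 did not pass (adjusted p = 0.105), nor did that of Slfn5 (-1.82 ± 0.38, adjusted p = 0.105). Of 26 tested genes of the interferon response list, Ifit1 passed and 25 were fitted lower, at a median of -0.83 beside 0.01 over all genes, and 13 had an unadjusted p under 0.05. Isg15, a ubiquitin-like protein, was at -0.66 ± 0.49 (adjusted p = 0.971). Ifitm1, far more abundant, overlapped between the groups.

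Markers of other cells differed in level in the same contrast, although 0 of those tested passed. The summed monocyte markers ranged from 564 to 1040 CPM in LysM-Cre isotype mice and from 425 to 713 CPM after anti-PD-1, and all 4 tested monocyte markers were fitted lower, at a median of -0.77. The summed macrophage markers ranged from 1877 to 6163 and from 1714 to 2880 CPM. Red cell and platelet markers summed to between 152 and 3032 CPM and between 166 and 424 CPM, with all 3 tested genes fitted lower, at a median of -1.35. The part of these markers in the interferon genes was not tested.

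In floxed mice the contrast was fitted over mice with at least 10 neutrophils, since only 2 floxed anti-PD-1 mice had 20. Ifit1 was at 151, 0 and 401 CPM in floxed anti-PD-1 mice 1 to 3, and at 210, 29.3, 142 and 183 CPM in floxed isotype mice. The change was 0.27 ± 0.75. The difference between the genotypes in this response was -4.32 ± 1.14 (interaction, edgeR, adjusted p = 0.574), so a difference between genotypes was not shown, and 0 of 1631 genes passed the interaction (background 0% there too; 126 at an unadjusted p under 0.05). Between genotypes under isotype, 0 of 1819 genes passed (background 0%; 51 at an unadjusted p under 0.05), and 24 of 26 interferon genes were fitted higher in LysM-Cre mice, at a median of 0.35. These contrasts share the LysM-Cre isotype mice.

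**Figure D4:**
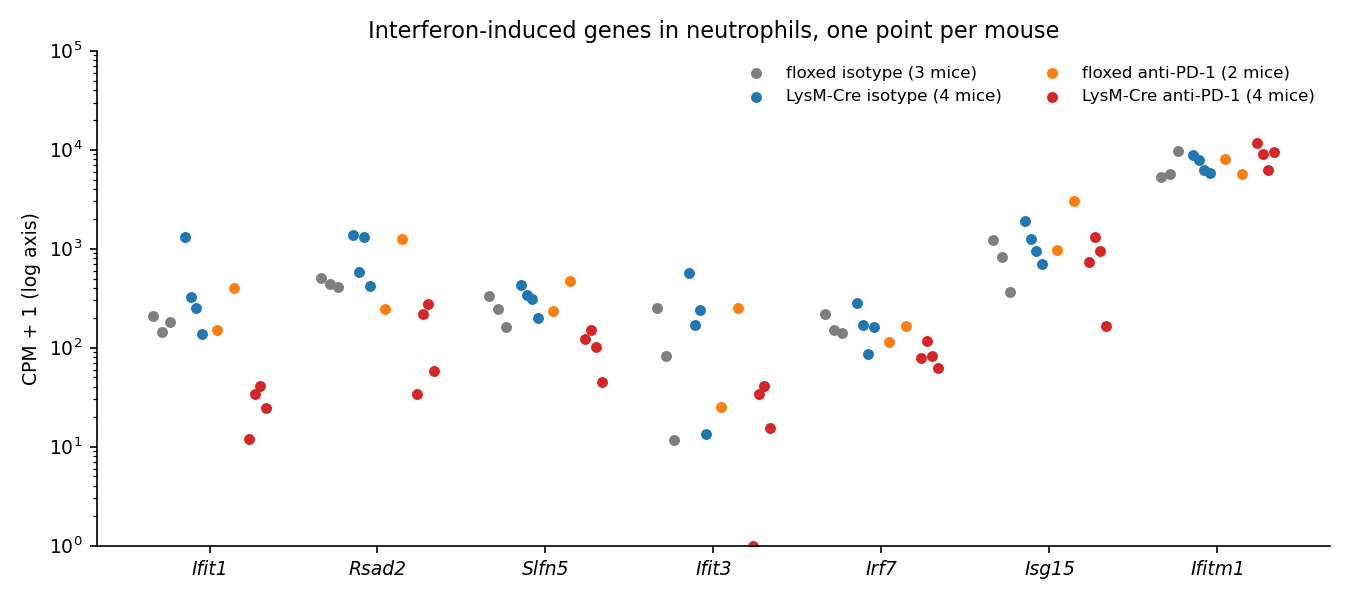
Interferon-induced genes in neutrophils of the 13 tested mice, in CPM + 1 on a log axis, by condition. Ifit1, Rsad2 and Slfn5 of the 4 LysM-Cre anti-PD-1 mice (red) lie below those of the 4 LysM-Cre isotype mice (blue), while Isg15 and Ifitm1 overlap. How many of all tested genes lie apart in this way was not counted.

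Variation among neutrophils of the same mouse was read through surface proteins. In each of the 5 mice with at least 40 neutrophils, cells were split at the median share of an antibody, and the RNA of the high and the low cells was compared with mouse as block. Ly-6G and CD14, with median counts of 43 and 22, were abundant enough, while CD274, Siglec-F and CXCR4 (2, 3 and 0) were not.

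Ly-6G protein set few genes apart. Of 4248 genes, 2 (0.0471%) were higher in the Ly-6G-high cells and 0 lower in edgeR, and DESeq2 called 2, with 278 genes at an unadjusted p under 0.05. Ly6g, the gene of the protein itself, was at 492, 230, 282, 132 and 415 CPM in the high cells of floxed isotype mice 1 and 3, of mouse 2 of the LysM-Cre isotype group, of the floxed mouse 1 given anti-PD-1 and of the LysM-Cre mouse 4 given it, and at 76.2, 65.1, 167, 21.9 and 114 CPM in the low cells. It was higher in 5 of 5 mice, by 1.70 ± 0.22 (adjusted p = 0.0041). The other call was Retnlg, which the rule had used to choose the cells; it was higher in 5 of 5 and is given as a description. Neither passed when mouse 4 of the LysM-Cre anti-PD-1 group was left out, and Retnlg was also lost without floxed isotype 1. Among proteins other than Ly-6G, CD11c was lower (-0.79 ± 0.13, adjusted p = 0.0066) and CD11b slightly lower (-0.18 ± 0.03), 2 of 80 or 2.5% (3.7% of the 81 antibodies with Ly-6G counted). CD11b was not called in 4 of the 5 fits that left out a mouse. CD11b made up 60% of neutrophil antibody counts, and the cut was on the share of Ly-6G in those counts. The CD11b change is therefore tied to the cut and is given as a description. Median antibody counts per cell were lower in the Ly-6G-high cells of every mouse split.

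CD14 protein set more genes apart in the main fit, but the gap from Ly-6G depended on the setting. With the outer of 3 parts compared, 206 genes passed for CD14 and 24 for Ly-6G. With S100a8 and S100a9 at 5% or more the counts were 12 and 10, and without LysM-Cre isotype 2 they were 12 and 9. Of 4325 genes, 150 (3.47%) passed in edgeR, 64 higher (1.48%) and 86 lower (1.99%) in CD14-high neutrophils, and 95 of the 150 had the fitted sign in every one of the 5 mice. The higher genes included 9 of 21 tested inflammatory genes and 6 of 23 of hypoxia and glycolysis, and the lower ones 5 of 14 of the mature neutrophil list. The 86 lower genes also included S100a8, S100a9, G0s2 and Retnlg, on which the rule had selected. How many genes passed depended on single mice: 12 without LysM-Cre isotype 2, 25 without floxed isotype 3, 61 without floxed anti-PD-1 1, 81 without LysM-Cre anti-PD-1 4 and 239 without floxed isotype 1. All main genes that could be retested in those 5 fits kept their sign. Those fits reuse mice that gave the calls, so the kept signs are a description and no separate support. Only 9 were called in all 5: Il1a, Cxcl3, Spp1, Hilpda, Bcl2a1b, Ccrl2, Arid5b, Ccl3 and Ccl4, singled out here after their values were seen.

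Il1a, the alarmin cytokine interleukin-1 alpha, was at 107, 265, 168, 140 and 359 CPM in the CD14-high cells and at 89.5, 51.8, 32.2, 33 and 17.4 CPM in the CD14-low cells, with the mice in the order given for Ly6g. In every mouse the high cells exceeded the low cells, least in floxed isotype 1. The log2 change was 2.47 ± 0.30 (adjusted p = 9.7e-05). Chemokines that attract neutrophils or monocytes went the same way. Cxcl3, a ligand of CXCR2, was at 1359, 1631, 1120, 420 and 1484 CPM in the high cells and 409, 856, 494, 286 and 367 CPM in the low cells (1.15 ± 0.16, adjusted p = 0.00042). Ccl3 and Ccl4, which attract monocytes and T cells, were higher by 1.05 ± 0.19 and 1.15 ± 0.19.

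Not every inflammatory gene followed. Of 21 tested inflammatory genes, 9 passed as higher, 2 as lower and 10 did not pass, at a median of 0.42 beside 0.00 over all genes. Cxcl1 (2.42 ± 0.50) and Ccl2 (1.08 ± 0.24) passed as higher but exceeded the low cells in only 3 of 5 mice each. Il1b, the most abundant interleukin gene of these cells, was lower by -0.51 ± 0.13 (adjusted p = 0.0289), as was Osm, which encodes oncostatin M (-0.62 ± 0.13), each in 4 of 5 mice. The genes of interleukin-1 alpha and beta thus had opposite signs.

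Genes of low oxygen and sugar use formed a second group, with 6 of 23 tested members higher, 0 lower and a median of 0.17. Hilpda, a lipid droplet protein induced when oxygen is low, was at 238, 99.7, 314, 166 and 418 CPM in the high cells and at 12.8, 47.5, 61.7, 22 and 88.9 CPM in the low cells (1.87 ± 0.23, adjusted p = 0.00011). The collagen-modifying enzyme gene P4ha1 (1.32 ± 0.28) and the hexokinase gene Hk2 (0.78 ± 0.20) also passed. Of 18 tested genes of the tumour-associated neutrophil list, 6 were higher and 0 lower, at a median of 0.42. The lists share genes. Il1a, Ccl3 and Ccl4 also belong to the inflammatory list and Hilpda to the hypoxia list, so these calls are counted in both. Spp1 (osteopontin), a secreted matrix protein, was at 989, 750, 2871, 428 and 1321 CPM in the high cells and at 256, 412, 502, 220 and 303 CPM in the low cells (1.58 ± 0.19, adjusted p = 9.7e-05).

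Among the 20 largest changes that passed were also Chil3 (2.10 ± 0.39), a chitinase-like protein, Inhba (1.61 ± 0.24), a subunit of activin A, and Bax (1.58 ± 0.32), which promotes cell death. In this set Gm34961 and Scrg1 were lower and the other 18 higher. Chil3 was at 0 CPM in the high cells of floxed isotype 1 and 12.8 in its low cells, against the direction of the fit. The survival gene Bcl2a1b was higher by 1.23 ± 0.23, but it has near-identical copies, so the count of this gene is uncertain. Ccrl2, a receptor that presents chemerin, was higher by 0.94 ± 0.14, and Arid5b, a chromatin regulator, by 1.39 ± 0.25.

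Among the lower genes were members of the mature list. Of 14 tested genes of the mature list, 0 were higher and 5 lower, and all 14 were fitted lower, at a median of -0.44. Retnlg and Cxcr2 of this list were used by the rule, and Retnlg is 1 of the 5. In a list of neutrophil identity genes that the rule did not use, 0 of 16 tested were higher and 5 lower. All 16 were fitted lower, at a median of -0.41. Mmp8 and Cd177 belong to both lists and to the granule list. The collagenase gene Mmp8 (-1.07 ± 0.21) and Cd177 (-1.21 ± 0.30) were lower in 4 of 5 mice each, and Mmp8 was not called in 3 of the 5 fits that left out a mouse (adjusted p up to 0.123). Of 9 tested granule genes, 3 passed as lower and 1, Chil3, as higher.

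S100a8, S100a9 and G0s2 are given as a description, because the rule selected on them. S100a8 was at 50694 CPM in CD14-high and 69063 CPM in CD14-low cells (mean of 5 mice), S100a9 at 70229 and 92226 CPM, and both, like G0s2, were lower in 5 of 5 mice. With S100a8 and S100a9 required to reach 5% of UMIs, the split left 12 calls, 11 of them among the 150. Of 32 tested interferon genes 1 passed, Rsad2, as lower, and the median was -0.03. Of 20 tested glucocorticoid response genes 1 passed, Anxa1, as lower (-0.68).

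**Figure D5:**
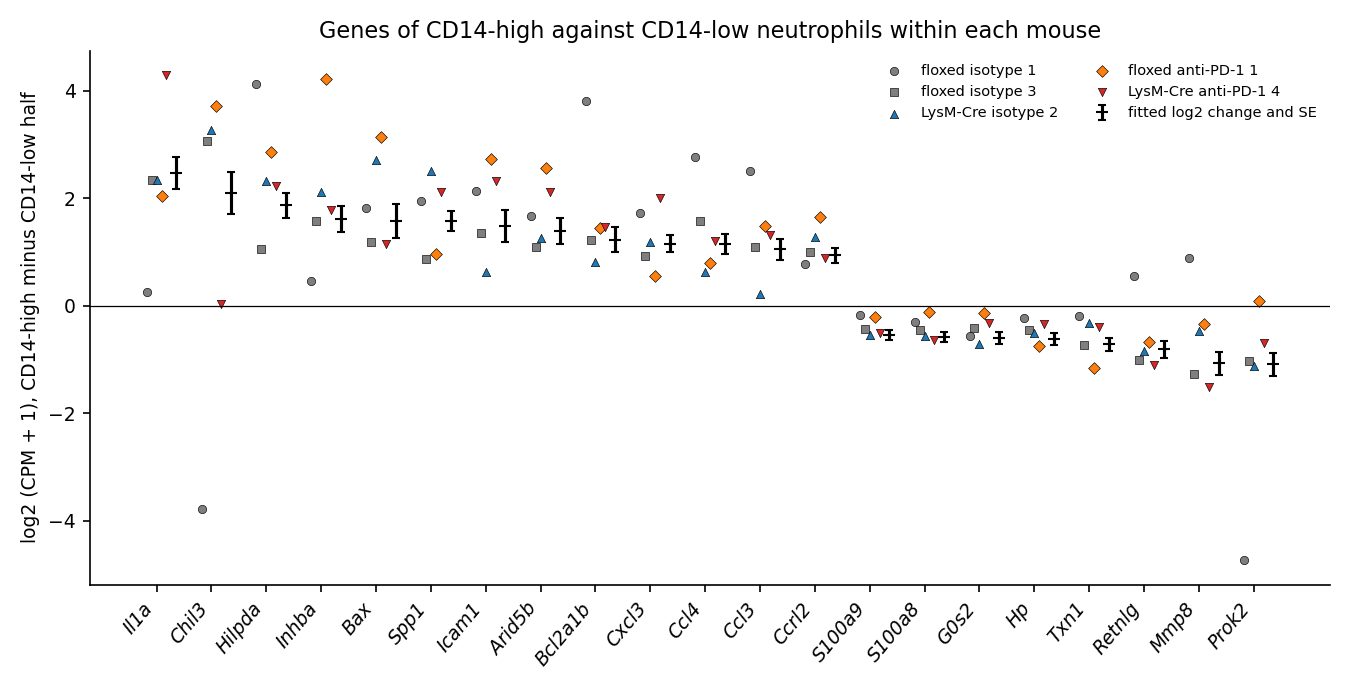
Difference in log2 (CPM + 1) between the CD14-high and the CD14-low neutrophils in each of 5 mice (symbols), with the fitted log2 change and its SE in black, for 21 genes that passed, chosen after their values were seen; S100a8, S100a9, G0s2 and Retnlg were used by the rule and are a description. Il1a, Hilpda, Spp1 and the chemokine genes lie above 0 in all 5 mice and S100a8, S100a9 and G0s2 below 0; Chil3, Retnlg, Mmp8 and Prok2 have 1 mouse on the other side.

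Cd14 RNA itself did not pass between high and low cells (0.04 ± 0.11, adjusted p = 0.876), although they were cut on the protein, which was at 17890 ± 6716 and 4275 ± 1815 antibody CPM (a description, not a test). Cd14 was at 1586, 2792, 2668, 1320 and 4250 CPM in the high cells and at 1624, 2254, 2187, 1376 and 3150 CPM in the low cells. The order was mixed: high cells exceeded low cells in 3 mice and fell below them in the other 2.

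Other proteins did differ. Of 80 antibodies besides CD14, 6 passed (7.5%, or 8.64% of the 81 with CD14 counted): CD274, ICAM1, Siglec-F, CD11c and CD39 higher and CD55 lower. CD274 was at 2165 ± 896 antibody CPM in the high cells and 753 ± 179 in the low cells (log2 change 1.26 ± 0.17, adjusted p = 0.00049). ICAM1 was higher by 0.87 ± 0.13 and Siglec-F by 0.95 ± 0.19, each in 5 of 5 mice, and both, like CD274, passed without any single mouse. CD11c, CD39 and CD55 (-0.42 ± 0.11) were each lost without some mice. Icam1 RNA moved with its protein (1.48 ± 0.30, adjusted p = 0.0079), whereas Cd274 RNA did not pass (0.53 ± 0.18, adjusted p = 0.112). Ly-6G protein did not pass (-0.19 ± 0.13, adjusted p = 0.532).

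Depth and marker counts of the high and low cells were compared. The CD14-high cells held 492 cells with 915 C1q and 84 Ly6c2 UMIs, and the CD14-low cells 489 cells with 923 and 104. The rule had capped both counts in every cell, so these totals cannot show whether high and low cells held equal RNA of other cells. The median depth was 2988.5 UMIs in the high cells and 3288 in the low cells. The summed monocyte markers were at 1039 CPM in the high cells and 552 in the low cells (mean of 5 mice). Of 9 tested monocyte markers, 7 were fitted higher, at a median of 0.72, and 1 passed (Chil3). In edgeR, 6 of the 9 had an unadjusted p under 0.05. The summed macrophage markers were at 2237 and 2028 CPM. Mitochondrial UMIs were at 0.591, 1.39, 1.45, 1.11 and 1.08% in the high cells and at 0.707, 0.932, 1.03, 0.593 and 0.64% in the low cells, higher in 4 of 5 mice. The part of these measures in the split was not tested. Keeping only cells with at most 1 C1q UMI and no Ly6c2 UMI left 17 calls, 15 of them shared with the 150. All 124 that could be retested kept their sign, a description only, because these cells are part of those that gave the calls.

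Promoters of the genes that moved with CD14 were read from RefSeq (build GRCm38.p6), where 119 of the 150 genes had an entry. A window of 250 bases before to 50 after the start site was searched on both strands for short motifs. They were ACGTG, the core letters of the hypoxia factor HIF, GGANTTTCC, letters of an NF-kappaB type site, and TGANTCA, letters of an AP-1 type site. Shares are of genes. A gene could have up to 26 entries, and the effect of that on the shares was not tested. ACGTG stood in 19 of 50 higher genes (38%), 21 of 69 lower genes (30.4%) and 21.8% of all 27025 genes, or 32.3% of tested genes. TGANTCA stood in 7 of 50 (14%) and 9 of 69 (13%), against 8.97% of all and 7.48% of tested genes. GGANTTTCC stood in 4 of 50 (8%) and 4 of 69 (5.8%), against 1.45% of all and 2.09% of tested genes. The promoters of 2 higher genes with that motif, Cxcl3 (chr5:90785851-90786100, plus strand) and Icam1 (chr9:21015690-21015939, plus strand), are shown up to the start site, because the RNA of both and the protein of Icam1 were measured. Capitals mark the matches: ACGTG on each strand, overlapping, and GGANTTTCC in Cxcl3, and GGANTTTCC read on the other strand in Icam1:
Cxcl3: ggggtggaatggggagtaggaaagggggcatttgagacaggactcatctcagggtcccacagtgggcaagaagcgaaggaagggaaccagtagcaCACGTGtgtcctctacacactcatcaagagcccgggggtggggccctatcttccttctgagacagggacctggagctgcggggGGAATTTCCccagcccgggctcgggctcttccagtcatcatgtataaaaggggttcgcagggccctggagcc
Icam1: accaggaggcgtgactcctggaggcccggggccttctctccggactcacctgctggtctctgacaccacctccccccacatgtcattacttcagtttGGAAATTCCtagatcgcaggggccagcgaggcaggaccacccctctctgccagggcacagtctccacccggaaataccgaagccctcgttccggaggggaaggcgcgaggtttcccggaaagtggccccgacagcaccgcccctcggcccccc
The motif of Cxcl3 begins 72 bases before the start site and that of Icam1 153 bases before it. These matches are a description and show no binding.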

How the data were processed

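The deposited matrices hold the authors' unnormalized counts: UMIs per gene, and antibody and hashtag tags, for each barcode. The file headers name Cell Ranger 6.1.2. The submitters' processing notes give version 3.0.1 and build mm10, and no source used here gives the alignment settings. Each cell took its mouse from its top hashtag, through the submitters' antibody table, which lists 89 antibodies where the matrices hold 88. Mice were numbered here by pool and hashtag order, only as names.

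Members and gene lists were chosen with earlier results of these data known. Neutrophil counts were summed per mouse and tested in edgeR 4.0.16 by quasi-likelihood F tests, after filterByExpr and TMM scaling, with pool as covariate and Benjamini-Hochberg adjustment over all genes tested. An SE is the absolute log2 change divided by the square root of F. Splits by protein used mouse as block in mice of at least 40 neutrophils. Antibodies needed 100 counts in all. Named genes were the 20 largest changes that passed at a mean of at least 10 CPM, the 25 most abundant, the 25 most different from Ly6c2-high C1q-low cells, markers and list members; others are marked. Scrublet (scanpy 1.11.5) marked almost no cells at its own threshold, so leaving out the top 5% of its scores served as an alternative. The gene tests were tried on simulated data. Mice are the replicates, so p-values measure the spread between mice; intervals on shares cover counting error only. Other alternatives were DESeq2 1.42.0, other scalings and filters, thinning to 500 UMIs and leaving out each mouse.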

Additional observations from a re-analysis of the deposited data

Results flagged for a closer look

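Values far from the other mice of their group, relative to the range of that group, were looked for in 63 groups of mice, and 9 were found; chance gives about 1 in 20 groups. The neutrophil share of LysM-Cre anti-PD-1 mouse 4 was 23.6%. Median Ly-6G counts per neutrophil were 42 in floxed isotype mouse 3 and 52 in LysM-Cre isotype mouse 4. Median CD274 counts were 14 in floxed anti-PD-1 mouse 3, 3 in LysM-Cre isotype mouse 3 and 4 in LysM-Cre anti-PD-1 mouse 2, the last 2 at very low counts. S100a9 was at 54712 CPM in LysM-Cre isotype mouse 4 and Ifit1 at 1302 CPM in LysM-Cre isotype mouse 1. Bcl2a1b had a log2 ratio of CD14-high to CD14-low neutrophils of 3.80 in floxed isotype mouse 1.

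Ly-6G was also high on cells that missed the RNA rule by 1 criterion and are not counted as neutrophils. Those with too many Ly6c2 or C1q UMIs fall in the Ly6c2-high C1q-low and the C1q-high group. The median was 45.5 counts on cells with too many C1q UMIs only, 41 on those with too many Ly6c2 UMIs only and 51 on those with a CD3 UMI only, against 0 on CD3 cells and on Ly6c2-high C1q-low cells.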

How the results depend on the processing

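For LysM-Cre against floxed, 9 genes passed with no filter on low counts. For anti-PD-1 against isotype, 6 passed with the top Scrublet scores left out, 1 in DESeq2 and 16 with no filter; leaving out mice one at a time gave 0 to 6 genes and 0 to 1 proteins. Within LysM-Cre mice, 0 passed with mice of at least 10 neutrophils and 8 in DESeq2, and 0 to 7 when mice were left out. The genotype difference in share ran from -0.44, reversed without LysM-Cre anti-PD-1 mouse 4, to 2.77 percentage points. Proteins against Ly6c2-high C1q-low cells gave 81 calls with antibody totals alone.

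The Ly-6G split gave 24 genes when cells were divided in 3 and the outer parts compared, 5 in thinned cells, 1 (neither Ly6g nor Retnlg) in cells with at most 1 C1q UMI and no Ly6c2 UMI, 10 with top Scrublet scores left out, 10 with S100a8 and S100a9 at 5% or more, 25 with no filter, and 0 to 9 with mice left out. Its proteins gave 8 with totals alone and 1 to 6 with mice left out. The CD14 split gave 16 genes in thinned cells, where 4 of 96 retested genes changed sign, 17 in cells low in C1q and Ly6c2, 12 with S100a8 and S100a9 at 5% or more, 57 in DESeq2, and 12 to 239 with mice left out; its proteins, with CD14 set aside, gave 3 to 6. The cause of these changes was not tested. Conditions were compared between mice without pairing, because each mouse had 1 genotype and 1 antibody. The labels give the mice no replicate numbers, and the numbers printed here only name them. The splits and the protein comparison with Ly6c2-high C1q-low cells had mouse as block.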
